A study of Rattus norvegicus with 6 samples.

Results

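The genes described are those of the NRF2 system of redox defence in rat RA-FLS (fibroblast-like synoviocytes, the fibroblasts of the joint lining, here in a model of rheumatoid arthritis). They were chosen by name as 10 genes, namely the transcription factor Nfe2l2 (NRF2), its sensor Keap1, and the target genes Hmox1, Nqo1, Gclc, Gclm, Txnrd1, Srxn1, Gsr and Osgin1. Of these, 9 had a row among the 34156 genes of the deposited count table, and all 9 had enough counts to test among 13614 genes. The expression of Srxn1 was not analysed here. RNA-seq was carried out on 6 cultures of wild-type cells, which the labels place at day 5, whereas the methods of the study give a harvest after a day of treatment. The TNF-α group (3 libraries) received 10 ng/mL TNF-α, an inflammatory cytokine, and the TNF-α+EMO group (3 libraries) received the same TNF-α together with 80 μmol/L EMO (emodin, a plant anthraquinone). TNF-α was thus present in every culture, and cells without it were not analysed here. Strain, age and the animals behind the cells are not given in the sources used here, and the cells came from a commercial supplier. The methods call the 3 cultures per group biological replicates, but nothing says that they came from separate animals. The p-values of the fits therefore set the difference between the groups against the spread between these cultures.

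NRF2 is a basic leucine zipper factor that switches on antioxidant genes. In unstressed cells the KEAP1 protein holds NRF2 and passes it to a ubiquitin ligase, and when electrophiles or oxidants modify cysteines of KEAP1, NRF2 protein escapes destruction, enters the nucleus, pairs with a small MAF protein and binds antioxidant response elements. The control is therefore mainly on NRF2 protein, which RNA-seq does not measure. The targets supply glutathione (Gclc, Gclm, Gsr), reduce thioredoxin (Txnrd1), reduce quinones (Nqo1) and break down heme (Hmox1).

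The antioxidant response element has the core TGACNNNGC, where N is any base, and it was searched on both strands of the RefSeq promoter windows of build GRCr8, which run from 250 bases before to 50 bases after a gene start. Windows were listed for 8 of the 10 genes (9 windows, as Txnrd1 has 2 starts), and 3 of the 9 windows held the core, against 12.1% of all 33469 windows. Hmox1 and Gsr had no listed window. The 3 matches are shown because they lie in genes that rose (Nfe2l2, Txnrd1) and in a gene that fell (Gclm). Each is printed on the strand that reads as the core, with the core in capitals.
Gclm, chr2:213031953-213031981, minus strand, 172 bases before the start: tggaagacaaTGACTAAGCagaaaccgca
Nfe2l2, chr3:81028950-81028971, minus strand, 39 bases after the start: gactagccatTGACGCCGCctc
Txnrd1, chr7:22755964-22755992, plus strand, 78 bases before the start: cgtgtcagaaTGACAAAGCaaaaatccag
None of the 3 overlapped the AP-1 motif TGANTCA, which 1 of the 9 windows (that of Srxn1) and 7.33% of all windows held. A match is a string of letters, and whether NRF2 bound there was not measured.

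The 6 libraries held 16813322 to 17794455 counts on genes. The groups differed widely, with 80.9% of the 13614 tested genes past an adjusted p of 0.05 (edgeR's quasi-likelihood test). Of 13 synovial fibroblast markers, 12 had a row, and their summed level was 12252 to 13256 CPM (counts scaled to a common library size) in the TNF-α libraries and 1984 to 2126 CPM in the TNF-α+EMO libraries. Col1a1 and Vim made up most of the sum under TNF-α alone, and Vim most of it with EMO. The log2 fold change was -4.91 for Col1a1 and -0.92 for Vim. Among the 9 markers tested 8 were lower with EMO. Dcn was higher, with 0, 4 and 1 counts under TNF-α alone and 33, 24 and 26 with EMO. Thy1, Prg4, Fap, Pdpn and Lum had 0 counts in every TNF-α+EMO library. Thy1, Prg4 and Pdpn were also low in the TNF-α libraries, at 7 counts or fewer. The summed level of 10 macrophage markers was 72.8 to 78.8 CPM in the TNF-α and 42.1 to 45.1 CPM in the TNF-α+EMO libraries, with Ptprc at 0 or 1 count in every library. Of the 3 macrophage markers tested, Cd14, which made up most of the sum, had -1.10 as its log2 fold change, while Cd68 rose by 0.75 and Itgam by 4.78 (from 0 or 1 count to between 10 and 14 counts a library). The summed level of the 5 endothelial markers with a row was at most 4.59 CPM and that of 7 lymphocyte markers at most 0.530 CPM. The summed level of 8 epithelial markers was 601 to 660 CPM in the TNF-α and 112 to 129 CPM in the TNF-α+EMO libraries, with Epcam at 0 in every library. Krt8 made up nearly all of that sum (10193 to 11087 counts against 1908 to 2262), and Cldn4, the other epithelial marker tested, went the opposite way, from 0 counts in every TNF-α library to 16, 17 and 28 with EMO. These marker shifts run with the treatment, and their part in the results on NRF2 genes was not tested. In bulk RNA, a change in the number of cells of a type and a change of RNA per cell cannot be told apart.

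Most NRF2 system genes were moderately higher with EMO. Hmox1 rose 4.54-fold, Nqo1 1.72-fold, Txnrd1 1.54-fold, Osgin1 1.51-fold, Gclc 1.39-fold and Nfe2l2 itself 1.35-fold. Gclm and Gsr fell, 1.46-fold and 1.47-fold lower with EMO. Keap1 did not pass the test. Thus 6 genes were higher and 2 lower at an adjusted p under 0.05, where 39.4% of all tested genes were higher and 41.4% lower. In 8 of the 9 genes the libraries of the groups were fully apart, as in 82.9% of all tested genes. When a change beyond 1 on the log2 scale was also required, here called a DEG (differentially expressed gene), only Hmox1 of the 9 genes qualified, against 47.3% of all tested genes (19.5% upwards and 27.8% downwards). Across the 9 genes the log2 fold change had a median of 0.47, against -0.01 over all tested genes, and the median of its absolute size was 0.56, against 0.96. Among the 10277 genes with a mean of at least 100 counts, where every one of the 9 genes lies, 84.9% passed the test (44% higher and 40.9% lower), 86.4% had groups that were fully apart and 43.2% were DEGs (19% upwards and 24.2% downwards), and the median absolute log2 fold change was 0.86.

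**Figure D1:**
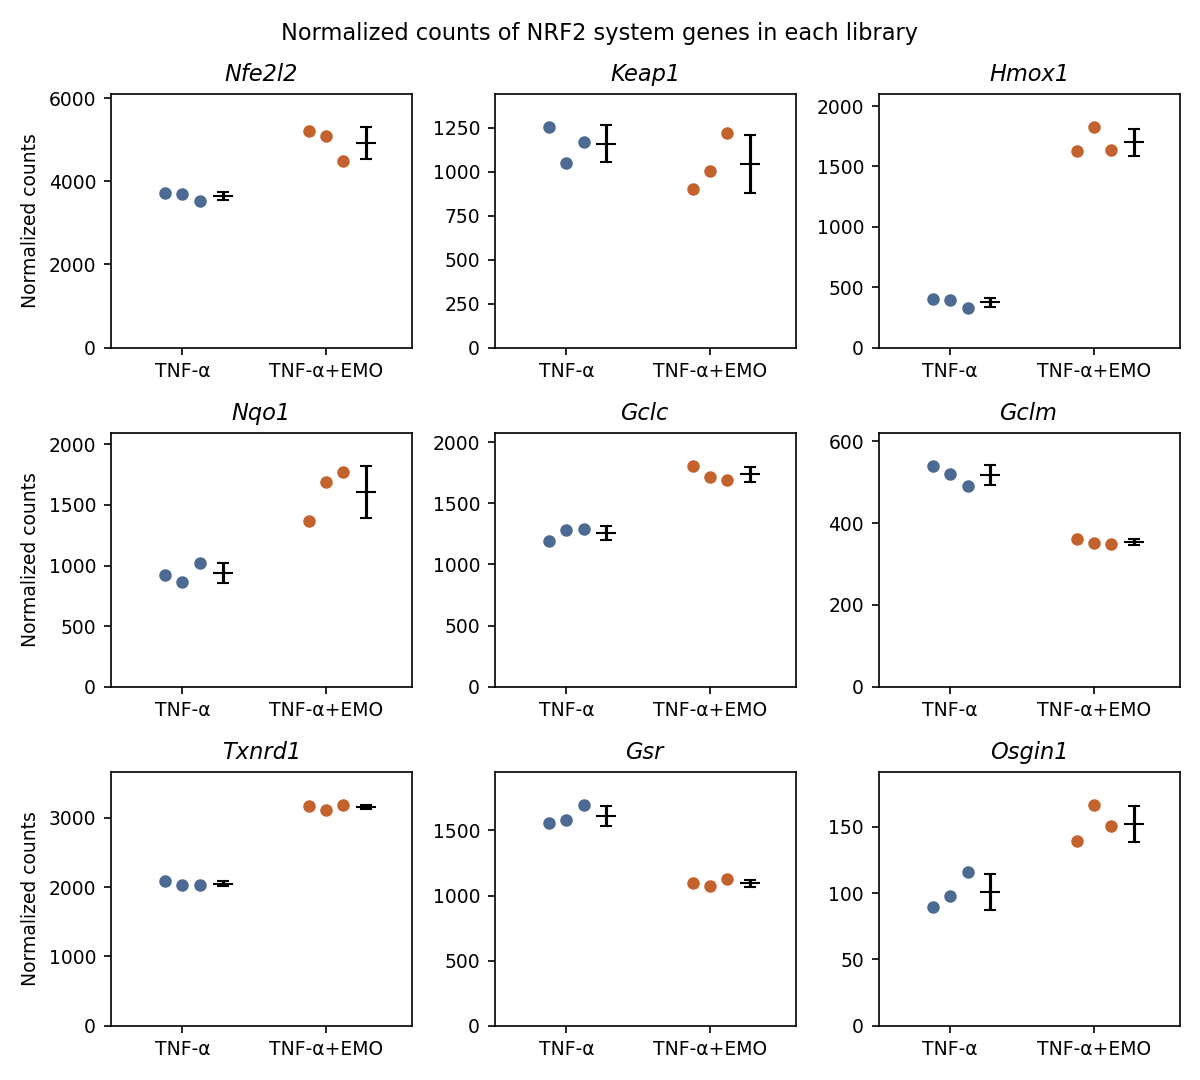
Normalized counts (y axis, from 0) of the 9 NRF2 system genes in each of 3 TNF-α (blue) and 3 TNF-α+EMO (orange) libraries, with the mean ± SD of each group beside the points. The groups separate in 8 genes, upwards in 6 and downwards in Gclm and Gsr, and they overlap in Keap1.

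Nfe2l2 (ENSRNOG00000001548, chromosome 3, 62497571 to 62524996) encodes NRF2. Coordinates are those deposited with the counts, and Rnor_6.0 is the build named in the submitters' processing notes. Its normalized counts (counts scaled by the effective library size) were 3719, 3684 and 3527 under TNF-α alone and 5213, 5081 and 4488 under TNF-α+EMO. Every TNF-α+EMO library was above every TNF-α library, and TNF-α+EMO replicate 3 was the lowest of its group. The mean was 3643 ± 103 against 4927 ± 386 (SD, n = 3 each), and the log2 fold change was 0.44 (SE, the standard error, 0.07; adjusted p = 1.2e-04, edgeR).

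Keap1 (ENSRNOG00000020878, chromosome 8, 22250518 to 22259779), the repressor and sensor of NRF2, had 1256, 1048 and 1171 normalized counts under TNF-α alone and 904, 1006 and 1221 under TNF-α+EMO. TNF-α+EMO replicates 1 and 2 lay under the TNF-α libraries and replicate 3 lay among them. The log2 fold change was -0.15 (SE 0.11, 95% interval -0.40 to 0.10, adjusted p = 0.24, edgeR), so the interval leaves room for a fall by up to 0.40 on the log2 scale. The call rested on TNF-α+EMO replicate 3, as without this library the log2 fold change was -0.29 (adjusted p = 0.0035, edgeR). With library totals in place of TMM scaling it was -0.27 (adjusted p = 0.041, edgeR).

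The number of Nfe2l2 counts per Keap1 count, both divided by gene length, does not depend on how the libraries are scaled. It was 4.06, 4.82 and 4.13 under TNF-α alone and 7.91, 6.92 and 5.04 under TNF-α+EMO, a mean of 4.34 ± 0.42 against 6.62 ± 1.46 (SD, n = 3 each). The groups did not overlap, and the spread was wider with EMO. The two-sided exact permutation test gave p = 0.1, the smallest that 3 against 3 libraries allow (p = 0.1 also when adjusted over the 2 ratios computed).

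Hmox1 (ENSRNOG00000014117, chromosome 19, 14508616 to 14515456) encodes heme oxygenase 1, which opens the heme ring to biliverdin, carbon monoxide and iron. It had 403, 392 and 328 normalized counts under TNF-α alone and 1630, 1830 and 1640 under TNF-α+EMO. The lowest TNF-α+EMO library was far above the highest TNF-α library. The mean rose from 374 ± 40.4 to 1700 ± 113 (SD, n = 3 each), and the log2 fold change was 2.18 (SE 0.10, adjusted p = 3.1e-09, edgeR). On the fold scale this is 4.54 with a 95% interval of 3.92 to 5.25, and 95.1% of the tested genes had a log2 fold change at or under it. Hmox1 was the only gene of the 9 whose interval lay beyond a log2 fold change of 1.

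Nqo1 (ENSRNOG00000012772, chromosome 19, 38422164 to 38437180) encodes a quinone reductase that converts quinones to hydroquinones with both electrons at once. Its normalized counts were 921, 865 and 1024 with TNF-α and 1367, 1687 and 1774 with TNF-α+EMO. The groups were apart, and the TNF-α+EMO libraries varied more (SD 215) than the TNF-α libraries (SD 80.6). The log2 fold change was 0.78 (SE 0.10, adjusted p = 3.7e-05, edgeR).

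Gclc (ENSRNOG00000006302, chromosome 8, 85059051 to 85097468) and Gclm (ENSRNOG00000013409, chromosome 2, 225827504 to 225847874) encode the catalytic and the modifier subunit of glutamate-cysteine ligase, the rate-limiting enzyme of glutathione synthesis. Gclc had 1189, 1283 and 1292 normalized counts under TNF-α alone and 1808, 1714 and 1693 under TNF-α+EMO, and every TNF-α+EMO library was higher. Its log2 fold change was 0.47 (SE 0.06, adjusted p = 4.6e-05, edgeR). Gclm went the opposite way, with 540, 520 and 491 normalized counts under TNF-α alone and 362, 351 and 348 under TNF-α+EMO. Every TNF-α+EMO library was lower, and the log2 fold change was -0.55 (SE 0.08, adjusted p = 1.1e-04, edgeR). The promoter window of Gclm is among the 3 that hold the response element core, and that of Gclc is not. Bases more than 250 before the start were not searched, so an element of Gclc further away would have been missed.

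The subunits thus moved in opposite directions between the groups. Gclc counts per Gclm count, both per length, were 1.07, 1.20 and 1.28 under TNF-α alone and 2.44, 2.38 and 2.37 under TNF-α+EMO. The mean went from 1.19 ± 0.11 to 2.40 ± 0.04 (SD, n = 3 each), a 2.02-fold increase. Because every TNF-α+EMO library was higher in Gclc and lower in Gclm, the groups could not overlap in this ratio. The two-sided exact permutation test therefore had to give p = 0.1, the smallest possible here (p = 0.1 when adjusted over the 2 ratios). It adds nothing to the results of the 2 genes, and the ratio was chosen after the values were seen.

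Gsr (ENSRNOG00000014915, chromosome 16, 62197617 to 62241361) encodes glutathione reductase, which returns oxidised glutathione to its reduced form at the cost of NADPH. It had 1555, 1579 and 1698 normalized counts with TNF-α and 1092, 1070 and 1124 with TNF-α+EMO. All TNF-α+EMO libraries were lower, and the log2 fold change was -0.56 (SE 0.07, adjusted p = 1.3e-05, edgeR). A small nucleolar RNA gene with at most 2 counts in a library overlaps Gsr, and no other gene in the table overlaps the 9 genes.

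Txnrd1 (ENSRNOG00000009088, chromosome 7, 26946125 to 26984400) encodes the cytosolic thioredoxin reductase, a selenoprotein that does for thioredoxin what Gsr does for glutathione. Its normalized counts were 2093, 2025 and 2031 with TNF-α and 3170, 3119 and 3182 with TNF-α+EMO. These were the tightest values of the 9 genes, with a coefficient of variation of 1.83% and 1.06%, and the log2 fold change was 0.62 (SE 0.06, adjusted p = 1.2e-06, edgeR). The reductases of the thioredoxin and the glutathione system therefore moved in opposite directions.

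Osgin1 (ENSRNOG00000014948, chromosome 19, 52077109 to 52085496), an oxidative stress induced growth inhibitor, was the least abundant of the 9 genes. It had 89.3, 97.5 and 116 normalized counts with TNF-α and 139, 167 and 151 with TNF-α+EMO. The groups were apart by less than in the other 7 genes that passed the test, and the log2 fold change was 0.59 (SE 0.17, adjusted p = 0.0070, edgeR).

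**Figure D2:**
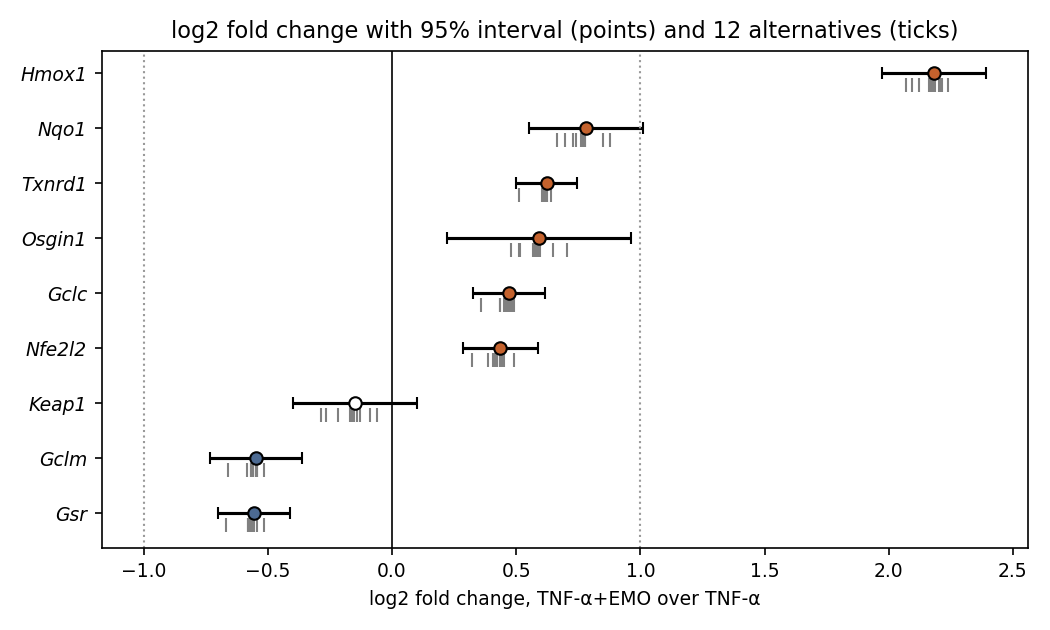
log2 fold change of TNF-α+EMO over TNF-α (x axis) for the 9 NRF2 system genes, as points with 95% intervals (orange higher, blue lower, white not past the test) and grey ticks for 12 alternative fits each. Hmox1 at 2.18 lies alone beyond the dotted line at 1, the other higher genes lie between 0.44 and 0.78, and the interval of Keap1 holds 0.

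Divided by gene length, the levels of the genes can be set side by side, with the limit that the deposited length is the same whichever transcript of a gene is made. In the TNF-α group the order, in normalized counts per kb, was Nfe2l2 (1579), Gsr (810), Txnrd1 (598), Nqo1 (593), Gclc (412), Keap1 (366), Gclm (348), Hmox1 (239) and Osgin1 (45.7). Txnrd1 and Nqo1 overlapped between libraries, as did Gclc with Keap1 and Keap1 with Gclm, so their order is not resolved. In the TNF-α+EMO group Nfe2l2 was again highest (2136 per kb), followed by Hmox1 (1085), Nqo1 (1019) and Txnrd1 (920). Hmox1 overlapped with Nqo1, and Nqo1 with Txnrd1. Gclc (571) and Gsr (551) overlapped too, and Keap1 (330), Gclm (238) and Osgin1 (69.0) followed without overlap. By the group means, Hmox1 thus passed from the eighth level per length of the 9 genes to the second, and Gsr from the second to the sixth. Given the overlaps with EMO, the order of Hmox1 and Nqo1 and that of Gclc and Gsr are not resolved there.

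**Figure D3:**
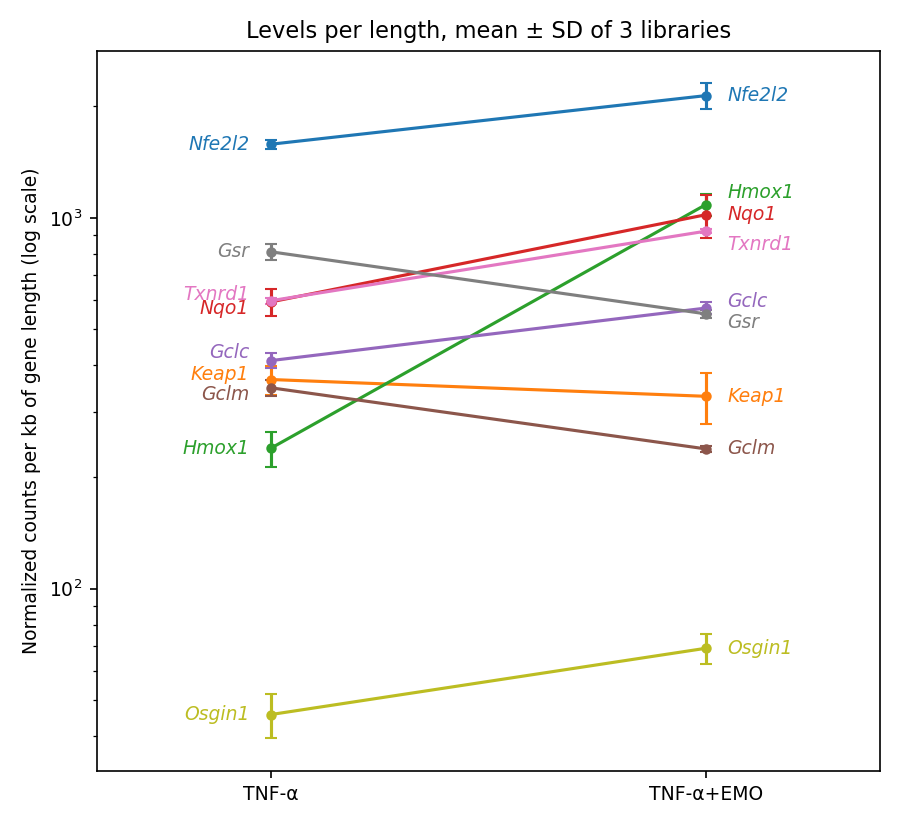
Normalized counts per kb of gene length (log y axis) in the TNF-α and TNF-α+EMO groups, as mean ± SD of 3 libraries, with a line for each of the 9 genes. The line of Hmox1 climbs from 239 to 1085 and crosses those of Gclm, Keap1, Gclc, Nqo1, Txnrd1 and Gsr.

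Genes with a pattern like that of Nfe2l2 and of Hmox1 were sought among 10268 other genes with a mean of at least 100 counts, by the root mean square difference over the 6 libraries in log2 normalized counts centred on each gene's mean. Closest to Nfe2l2 were Lsm14b (0.03), Asb3 (0.03) and Nxf1 (0.03), the last an exporter of mRNA from the nucleus. Closest to Hmox1 were Slc37a1 (0.06), Vezt (0.06) and Lpin3 (0.07), of which Lpin3 is a phosphatidate phosphatase. With 2 groups of 3 libraries, the closeness is set mostly by the size of the difference between the groups.

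Other genes of the pathway were taken from 6 lists of 99 genes. Of these, 95 had a row and 84 were tested, with 47 higher, 34 lower and 3 (Cul3, Gstm5 and Akr7a2) not past the test, so that 96.4% were called, against 80.9% of all tested genes and 84.9% of those with a mean of at least 100 counts. Among them 29 higher and 21 lower genes were DEGs, or 59.5% of the 84, against 47.3% of all tested genes. Ggt5, Gstm2, Pgd and Akr1b10 were not analysed here. Over the 84 genes together the changes reached further in both directions than in the 9 genes, which are fewer. The NADPH supply list (-0.27 to 1.75) stayed within the range of the 9 genes (-0.56 to 2.18).

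Among 14 regulators and partners of NRF2 tested, 9 were higher and 4 lower with EMO (median log2 fold change 0.32), where 39.4% of all tested genes were higher and 41.4% lower. DEGs made up 42.9% of them, under the 47.3% of all tested genes. Sqstm1, which encodes the autophagy receptor p62 that can take KEAP1 away from NRF2, had 8489, 8094 and 8195 normalized counts under TNF-α alone and 65554, 68274 and 79460 under TNF-α+EMO. All TNF-α+EMO libraries were thus far above the TNF-α libraries, and the log2 fold change was 3.11 (SE 0.08, adjusted p = 4.7e-11, edgeR). Mafk, a small MAF partner of NRF2, rose by 2.23 on the log2 scale (SE 0.12), and Maff by 2.18 (SE 0.19). Bach1, which represses Hmox1 and other genes at the same elements, rose by 0.81 (SE 0.12). Trim25 and Dpp3, whose protein can bind KEAP1, had log2 fold changes of -2.37 (SE 0.10) and -1.15 (SE 0.07). Cul3, the scaffold of the ligase that KEAP1 serves, had 0.10 as its log2 fold change (SE 0.10, adjusted p = 0.37, edgeR), which passed the test at 0.21 (adjusted p = 0.0038) without TNF-α+EMO replicate 3.

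Of 25 genes of glutathione synthesis and use tested, 11 were higher and 13 lower (median log2 fold change -0.42), a split near that of all tested genes (39.4% and 41.4%). Slc7a11, the cystine carrier, rose by 2.22 (SE 0.11) on the log2 scale and its partner chain Slc3a2 by 2.04 (SE 0.06). Chac1, which breaks glutathione down, rose by 5.60 (SE 0.09), from 135 ± 4.22 to 6556 ± 555 normalized counts (SD, n = 3 each). Slc7a11, Slc3a2 and Chac1 are also known as targets of the stress factor ATF4. Of the transferases, Gsta1 rose by 2.53 (SE 0.16). Mgst3, a membrane transferase, fell from 1232 counts summed over the TNF-α libraries to 4 over the TNF-α+EMO libraries, 294-fold lower with a counting interval of 114 to 1080 (Clopper-Pearson, 95%, counting error only). Glrx, a glutaredoxin, had -4.29 as its log2 fold change (SE 0.22). Transferase genes have close copies, and reads may have been shared out among them, so single values of Gsta and Gstm genes are uncertain. Gstm5 had 62.8, 75.1 and 755 normalized counts under TNF-α alone and 17.5, 70.6 and 364 under TNF-α+EMO, so replicate 3 stood apart in both groups, and its log2 fold change of -0.98 (adjusted p = 0.59, edgeR) became 1.13 without TNF-α replicate 3 (adjusted p = 0.51, edgeR). The rows of Gpx3, Gpx4, Gsta2, Gsta3 and Gstm3 were too low to test. That of Gpx4 held between 1 and 16 counts a library. Whether reads of Gpx4 were lost or counted in another row was not tested, so its level is uncertain.

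All 15 thioredoxin and peroxiredoxin genes passed the test, 11 higher and 4 lower (median log2 fold change 1.21), beside 80.9% of all tested genes past the test, 39.4% higher and 41.4% lower. Sesn2, a stress-induced sestrin, rose by 4.46 (SE 0.07) and Prdx5, a peroxiredoxin, by 2.67 (SE 0.12). Txnrd3 rose by 2.61 (SE 0.07) and Prdx1 by 1.36 (SE 0.05). Txn1, the cytosolic substrate of Txnrd1, was lower, with -0.68 on the log2 scale (SE 0.07). Txnip, an inhibitor of thioredoxin, had -2.77 as its log2 fold change (SE 0.07) and Prdx4 had -1.26 (SE 0.06).

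Of 7 genes of NADPH supply tested, 6 were higher and Mthfd1 lower (median log2 fold change 0.26), with 39.4% higher and 41.4% lower over all tested genes. Among the 6, Me1 (0.26, adjusted p = 0.043, edgeR) had groups that overlapped, and it passed the test in 4 of 12 alternative fits. Tkt, at 0.15 on the log2 scale, passed in 7 of 12. Taldo1 of the pentose phosphate pathway rose by 1.75 (SE 0.07) on the log2 scale. The log2 fold change of Mthfd1 was -0.27 (SE 0.07).

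Among 15 quinone, carbonyl and conjugation enzymes tested, 10 were lower and 4 higher (median log2 fold change -0.65), set against 41.4% lower and 39.4% higher of all tested genes. Akr1b8 and Akr1a1, aldo-keto reductases, rose by 1.72 (SE 0.07) and 1.02 (SE 0.08). Aldh3a1, an aldehyde dehydrogenase, was at -11.45 on the log2 scale (SE 0.16), and at -12.14 without TNF-α+EMO replicate 3. Its counts in the TNF-α+EMO libraries were as low as 4 and at most 13. With a library left out the value ranged from -12.14 to -11.17, so the size of the fall is less certain than the SE states. Ptgr1, a reductase of prostaglandins and alkenals, was at -3.47 (SE 0.18). Akr7a2 had a log2 fold change of -0.31 (adjusted p = 0.077, edgeR), which was -0.51 (adjusted p = 7.9e-04, edgeR) without TNF-α+EMO replicate 1. Akr7a3, Adh7 and Abcc2 were too low to test.

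Of 8 heme and iron genes tested, 6 were higher and 2 lower (median log2 fold change 0.54), while the shares over all tested genes were 39.4% and 41.4%. Alas1, the first enzyme of heme synthesis, rose by 2.12 (SE 0.09). The row named Ftl1 (ferritin light chain) rose by 2.55 (SE 0.25), from 113 ± 27.2 to 662 ± 184 normalized counts (SD, n = 3 each). Its span on chromosome 5 equals its gene length of 908 bases, so it holds no intron, and whether it is a copy was not tested. Ferritin genes have near-identical copies, and Fth1, the heavy chain, was listed with 0 counts in every library, so the ferritin values are uncertain. Blvra, which turns biliverdin into bilirubin, had -1.06 as its log2 fold change (SE 0.14). Fech, the last enzyme of heme synthesis, stood at -0.22 on the log2 scale (SE 0.08, adjusted p = 0.022, edgeR). The call of Fech was lost without TNF-α+EMO replicate 2 (adjusted p = 0.058), TNF-α replicate 1 (adjusted p = 0.066) or TNF-α replicate 3 (adjusted p = 0.091). Slc40a1 had 0 counts in every library, and Nfe2l3 among the regulators was also too low to test.

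**Figure D4:**
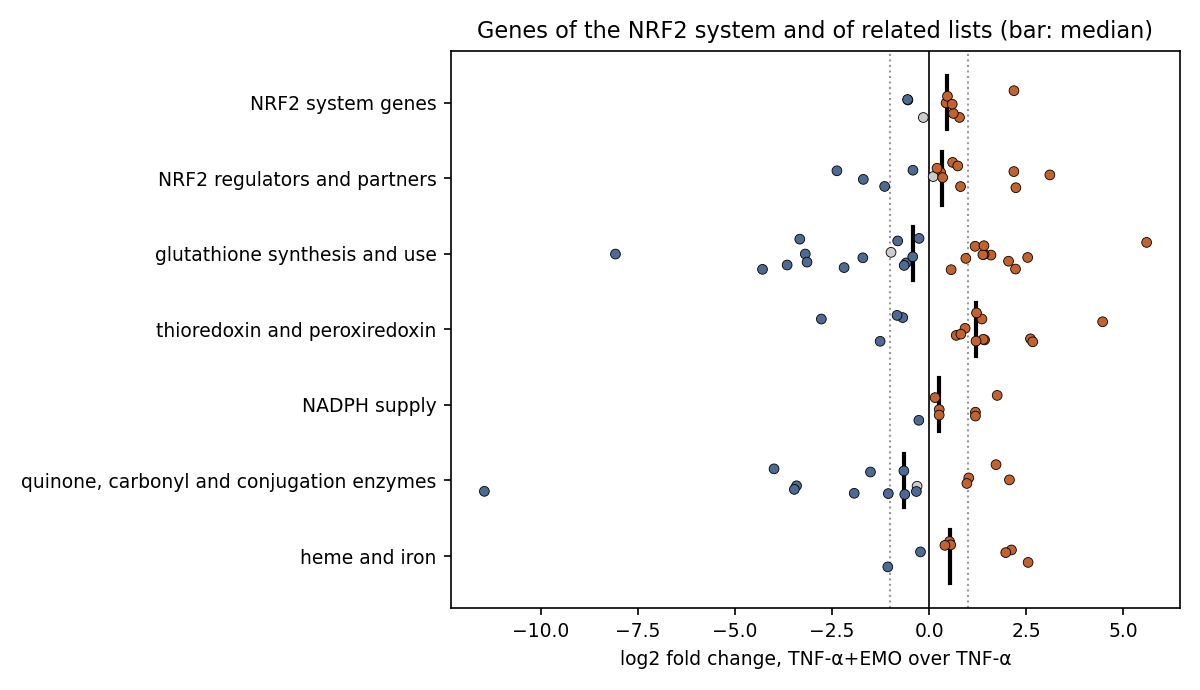
log2 fold change of TNF-α+EMO over TNF-α (x axis) for the 9 NRF2 system genes (top row) and the 84 tested genes of 6 related lists, a point per gene (orange higher, blue lower, grey not past the test) with the median as a black bar. The 9 genes lie between -0.56 and 2.18, while the lists run from -11.45 to 5.60.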

How the data were processed

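Fibroblast-like synoviocytes of rat were compared by RNA-seq in 3 TNF-α+EMO and 3 TNF-α libraries, grouped by the sample labels. The authors had mRNA purified on poly(A), sequenced the libraries from both ends and aligned cleaned reads with HISAT2. The submitters' processing notes name FastQC, Trimmomatic and Rnor_6.0. The counting program, annotation version and strand setting are not given in the sources used here. The authors deposited raw counts per gene, without normalization, and the gene length (another column, in bases). The 6 deposited FPKM columns and the authors' own comparison (group means, log2 fold change, p-values) were not used.

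A gene was tested if 3 or more libraries held 10 or more counts. Libraries were scaled by TMM, and the model was edgeR 4.0.16 under R 4.3.3 (robust quasi-likelihood F test, Benjamini-Hochberg adjustment over 13614 genes). The threshold was an adjusted p under 0.05. Standard errors are the log2 fold change divided by the square root of F. DESeq2 1.42.0, other scalings and filters, the replicate block and leaving out each library were alternatives, and the fits were tested on simulated counts. In the simulation far fewer genes changed than in the data, and all genes shared the same dispersion. It therefore cannot show how the fits behave when most genes change. Depth was 16813322 to 17794455 counts per library. Each nearest pattern (the 3 closest genes to Nfe2l2 and to Hmox1) used log2 of normalized counts plus 0.5.

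The genes and lists were chosen with earlier results of these data known. Within the lists, the named genes are the 2 largest increases and 2 largest decreases among genes past the threshold with a mean of at least 100 counts, of which 1 is not reported here. Maff, Bach1, Cul3, Slc7a11, Slc3a2, Gstm5, Txnrd3, Prdx1, Txn1, Me1, Tkt, Akr7a2 and the 2 within-library ratios were chosen after their values were seen.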

Additional observations from a re-analysis of the deposited data

How the results depend on the processing

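Over 12 alternative fits per gene, the direction of each of the 9 NRF2 system genes was kept, and 106 of 108 values stayed on the same side of the threshold. The exceptions were both Keap1, with a log2 fold change of -0.27 (adjusted p = 0.041) under library totals and a range of -0.29 to -0.063 when a library was left out. With an absolute log2 fold change over 1 required, 1 NRF2 system gene was higher and 0 lower, 29 genes of the related lists were higher and 21 lower, and 6442 genes were called in all. Without TMM scaling, the median log2 fold change of all genes was -0.13 in place of -0.01. The direction of Cul3 turned under library totals (-0.0096) and, with a library left out, its value ranged from -0.018 to 0.21 and that of Gstm5 from -2.76 to 1.13. The labels share replicate numbers. The deviations of libraries with the same number from the mean of their group had correlations of 0.02, -0.004 and 0.06. The numbers were therefore not taken to pair the samples. A correlation over all genes can miss a link in single genes, and in Gstm5 replicate 3 stood apart in both groups. With the replicate block, 10806 genes were called against 11008, and 6 NRF2 system genes were higher and 2 lower. The block brought Gstm5 (-0.91, adjusted p = 0.017) and Akr7a2 (-0.33, adjusted p = 0.012) past the threshold. Me1 and Tkt aside, it changed no other call of a named gene. With 3 libraries a group, exact tests of a single gene cannot go below p = 0.1, and Osgin1, with the lowest counts, had the widest interval (0.22 to 0.96).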
